A study of Homo sapiens with 12 samples.

Results

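Nuclear hormone receptors are transcription factors, most of which are switched by small fat-soluble ligands such as retinoic acid, thyroid hormone, steroids, oxysterols or fatty acids. Here, 46 genes of the family were followed by symbol in a table of read counts for 60591 genes, and all 46 had a row. The cells were PC9 and H1650, 2 established lung cancer lines that carry an activating deletion in EGFR. The first time point, T0, was taken at 0 h with 0.1% DMSO, and the others following 36 h of exposure to an EGFR inhibitor, either 10 µM erlotinib or 0.1 µM osimertinib. With 2 replicates in every combination of line and treatment there were 6 groups and 12 libraries of polyA RNA, and the cells were labelled wild type with no engineered change. No library of vehicle-treated cells at 36 h was analysed here, so every change against T0 joins the effect of the drug with that of 36 h in culture. The T0 libraries of a line serve as the comparison for both of its drug groups.

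A receptor of this family binds DNA at short hexamer half-sites, alone, as a pair of itself or as a pair with a retinoid X receptor (RXR). The retinoic acid receptors (RARs), thyroid hormone receptors, vitamin D receptor, liver X receptors (LXRs) and peroxisome proliferator-activated receptors (PPARs) all pair with an RXR. Others, such as REV-ERB, COUP-TF and NR4A proteins, act without a known classical hormone and are called orphan receptors. In epithelial cells the family is known for roles in differentiation, lipid use, the daily clock and the response to steroids.

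Library totals lay between 17961765 and 26346187 reads assigned to genes, mitochondrial genes took 4.36% to 7.2% of them, and the 46 receptor genes took 0.129% to 0.200%. Levels are given as normalized CPM, which is the CPM after TMM scaling of the library sizes, and levels of different genes are compared only as normalized CPM per kb of gene length. A count of 3 reads, the most that a count of 0 allows, was worth 0.116 to 0.168 normalized CPM. Both lines held reads for all 6 epithelial marker genes in all 12 libraries, with a summed 9560 to 13300 normalized CPM in PC9 and 6160 to 9670 in H1650. Summed lung lineage markers stayed at or below 1.85, immune markers at or below 3.96, endothelial markers at or below 5.55 and fibroblast markers at or below 45.8 normalized CPM. In bulk samples, fewer cells of a type and less RNA per cell cannot be told apart.

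Of the 46 genes, 33 passed the expression filter and were tested. The other 13 were below it, with at most 10 reads in any library: RORB, NR1H4 (FXR), NR1I2 (PXR), NR1I3 (CAR), HNF4A, HNF4G, RXRG, NR2E3, ESRRB, ESRRG, PGR (the progesterone receptor), NR5A1 and NR0B2. None of the 46 had 0 reads in all 12 libraries, although RXRG and ESRRB had 1 read each in total. NR1H4, RXRG and PGR had 0 reads in all 6 PC9 libraries, while NR1I2, HNF4G, ESRRB and NR0B1 had 0 reads in all 6 H1650 libraries. The receptors that sense bile acids and foreign compounds in liver were thus at or near the detection limit in both lines.

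Before drug, the 5 leading receptors held 50.4% to 54% of the summed level per kb in each T0 library. The summed level of the 46 genes was 288 and 279 normalized CPM per kb in the PC9 T0 libraries and 262 and 237 in those of H1650. NR2F6, an orphan receptor of the COUP-TF group, held the highest share in both lines, 16.4% in PC9 and 22.7% in H1650. In PC9 it was followed by ESRRA (11.6%), an estrogen-related receptor tied to mitochondrial genes, NR2F2 (10.8%), also known as COUP-TFII, RXRA (7.01%) and NR1H2 (6.32%), the broadly expressed LXR. In H1650 the next were RARG (8.96%), NR1H2 (8.61%), NR3C1 (6.50%), the glucocorticoid receptor, and ESRRA (5.45%).

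The lines differed in most receptors at T0. By edgeR's quasi-likelihood test, 17 of the 33 tested members were higher in H1650 and 10 were lower at an adjusted p under 0.05, where 35.8% of all 19108 tested genes were higher and 33.8% were lower. A member read in one line only passes the filter through that line, so these counts carry no weight as a feature of the family. Of the 27 calls, 24 held under every alternative and with each library left out, and those of PPARA, NR1H2 and RXRB, all below 0.32 in size on the log2 scale, did not.

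NR0B1 (DAX1), a receptor without a DNA-binding domain that represses other receptors, separated the lines completely. It had 575 and 506 reads (29 and 25.0 normalized CPM) in PC9 at T0 and 0 reads in all 6 H1650 libraries, which makes it at least 193-fold lower in H1650 at T0. NR2F2 stood at 204 and 192 normalized CPM in PC9 and at 22.1 and 21.6 in H1650 (log2 fold change -3.18 ± 0.08 SE, adjusted p = 9.1e-23). NR1H3, the second LXR, stood at 21.3 and 22.9 against 4.01 and 2.82 (-2.71 ± 0.16, adjusted p = 9.08e-15). NR3C2, the mineralocorticoid receptor, had 15 and 19 reads in PC9 and 3 and 1 in H1650, a ratio of 10.0 with a 95% counting interval of 3.58 to 38.9. Its fitted difference, -3.235 on the log2 scale, became -4.28 without the first H1650 T0 library and -2.55 without the second.

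The receptors that were higher in H1650 included the NR4A group, orphan receptors that are induced rapidly by growth signals. NR4A1 (NUR77) stood at 4.24 and 5.23 normalized CPM in PC9 and at 51.4 and 56.4 in H1650 (log2 fold change 3.51 ± 0.17, adjusted p = 8.59e-17), and NR4A2 (NURR1) at 2.77 and 2.57 against 13.8 and 13.1 (2.33 ± 0.18, adjusted p = 2.58e-12). NR4A3 had 1 read in each PC9 T0 library and 36 and 78 reads in those of H1650. RORA, a clock-linked receptor, stood at 1.41 and 1.43 against 8.21 and 10.7 (2.73 ± 0.23, adjusted p = 3.34e-11), and THRB at 10.1 and 14.1 against 62.8 and 59.0 (2.33 ± 0.12, adjusted p = 8.32e-16). NR2F1 (COUP-TFI) differed in the opposite direction to its relative NR2F2, at 10.9 and 8.79 in PC9 and 34.6 and 34.9 in H1650 (1.82 ± 0.14, adjusted p = 2.84e-12). THRA (1.34), NR5A2 (1.58) and ESR2 (2.32 on the log2 scale, from 5 and 6 reads in PC9) were also higher in H1650, and RXRA (-1.1), ESRRA (-1.28) and NR6A1 (-1.25) were lower. NR2E1 had 0 reads in both PC9 libraries and 7 and 10 in those of H1650, at least 2.35-fold higher. VDR, NR1D2, ESR1, NR2C2, NR2F6 and RARB did not pass the test between the lines.

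**Figure D1:**
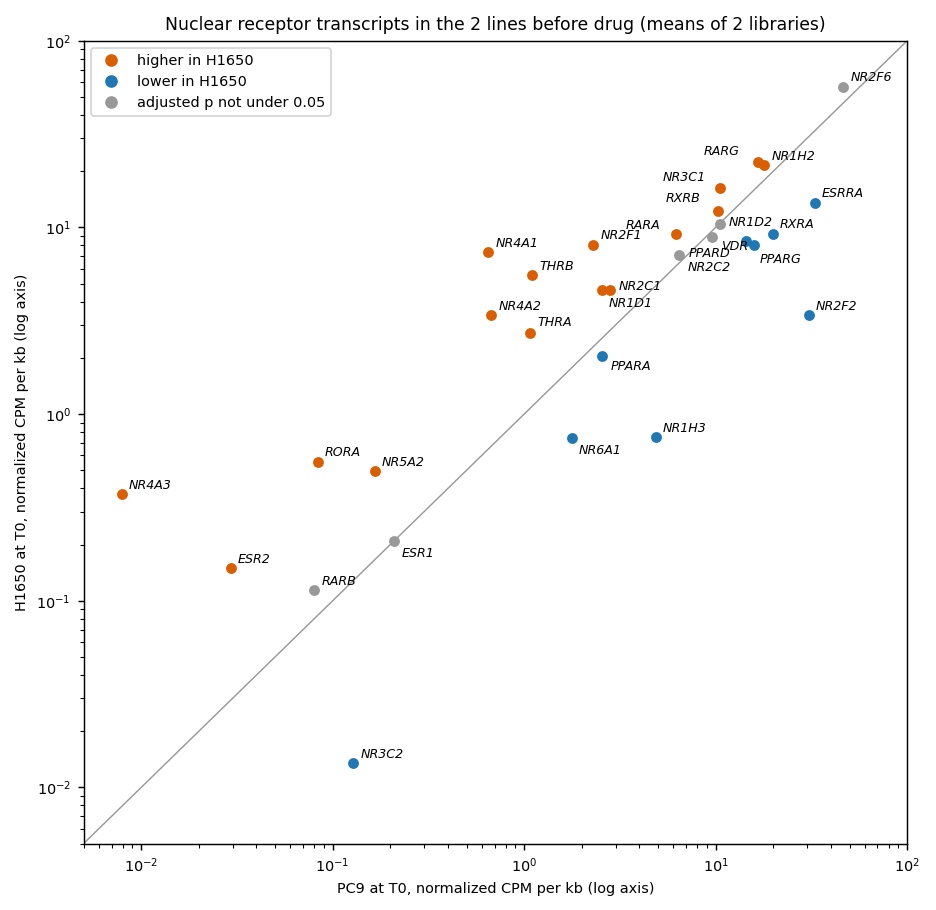
Level of 31 nuclear receptor genes in PC9 (horizontal) and H1650 (vertical) at T0, as normalized CPM per kb on log axes, each point the mean of 2 libraries and the grey line equality. NR2F2 and NR1H3 lie far below the line and NR4A1, NR4A3, RORA and THRB far above it; NR0B1 and NR2E1, at 0 in one line, are not drawn.

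Most tested receptors were called in PC9 cells following EGFR inhibition, and fewer in H1650 cells, and the same held for all tested genes. In PC9 with erlotinib, 17 members rose and 9 fell, where 32.7% of all tested genes rose and 29.1% fell. With osimertinib, 16 rose and 8 fell in PC9, where 32.7% of all tested genes rose and 28.7% fell. In H1650 with erlotinib, 10 rose and 6 fell (18.0% and 18.5% of all tested genes). With osimertinib in H1650, 12 rose and 1 fell (17.8% and 17.9% of all tested genes). Among genes with at least 10 reads in every library, 20 of 26 members and 9493 of 13076 genes were called in PC9 with erlotinib. With osimertinib in PC9 these were 21 of 26 and 9535 of 13076. In H1650 they were 17 of 26 and 6224 of 13076 with erlotinib, and 13 of 26 and 6121 of 13076 with osimertinib. The counts are not read as a feature of the family. The median log2 fold change over the 33 tested members was 0.49 (erlotinib) and 0.38 (osimertinib) for PC9 cells and 0.19 with each drug for H1650 cells, beside medians over all tested genes of 0.07, 0.06, 0.01 and 0.00. The summed level of the 46 genes per kb went from 288 and 279 in PC9 to 373 and 352 with erlotinib and 368 and 367 with osimertinib, and from 262 and 237 in H1650 to 295 and 278 and to 297 and 277. Much of the PC9 rise in this sum was NR0B1, with means of 13.5 at T0, 60.5 with erlotinib and 68.9 with osimertinib. NR0B1 added nothing to the sum in H1650, where it had 0 reads.

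In all, 30 members passed the test in at least 1 of these 4 comparisons, 9 in all 4, and 8 of those moved in the same direction in all 4. Of all 19108 tested genes, 77.0% passed in at least 1 comparison, 20.3% in all 4 and 17.6% in all 4 in the same direction, and the comparisons of a line share its T0 libraries. The 8 were THRA, RARG, PPARA, RXRA, RXRB, NR2C1 and NR4A2, which rose, and VDR, which fell. PPARG was the ninth and fell in PC9 but rose in H1650. RORA, NR2E1 and NR4A3 passed in none. Under the alternatives and with each library left out in turn, 21 of the 26 calls with erlotinib and 18 of the 24 with osimertinib held throughout in PC9, against 6 of 16 and 7 of 13 in H1650. In H1650, RARG passed at an adjusted p of 0.0463 and 0.0488 and was lost whichever library was left out and with DESeq2, RLE scaling or no filter (adjusted p up to 0.354 and 0.359), and PPARG with osimertinib (adjusted p = 0.0413) was lost under the same 3 settings and without any 1 of 6 libraries, namely both of PC9 T0 and all 4 of the H1650 comparison (adjusted p up to 0.251).

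**Figure D2:**
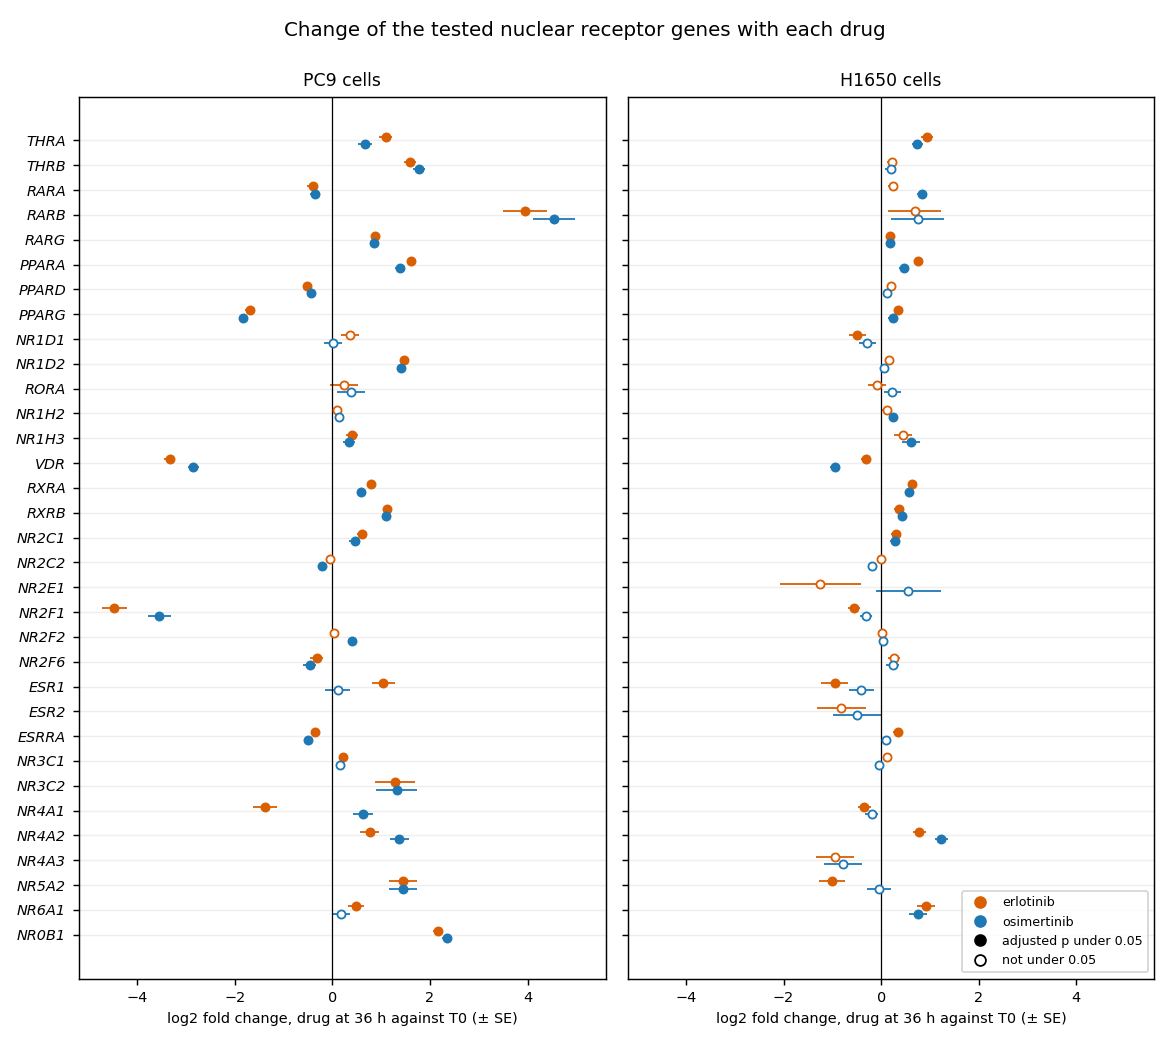
Log2 fold change (± SE) of each tested member at 36 h against T0 in PC9 (left) and H1650 (right), orange for erlotinib and blue for osimertinib, filled where the adjusted p was under 0.05. RARB and NR0B1 rose and VDR and NR2F1 fell furthest in PC9, and the points of H1650 lie closer to 0; genes with at most 7 reads in every library of a line (ESR2, NR2E1 and NR4A3 in PC9, NR3C2 and NR0B1 in H1650) are not drawn there.

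NR0B1 became the member with the highest level per kb in PC9 under both drugs. Its gene lies at chrX:30304206-30309390 (RefSeq, GRCh38.p14). It went from 29 and 25.0 normalized CPM at T0 to 127 and 114 with erlotinib (2.16 ± 0.10 SE on the log2 scale, adjusted p = 4.36e-16) and to 139 and 136 with osimertinib (2.35 ± 0.10, adjusted p = 7.75e-17). All 4 treated PC9 libraries lay above both T0 libraries. Its share of the summed receptor level per kb reached 16.7% with erlotinib and 18.7% with osimertinib, ahead of NR2F6 (10.2% and 9.17%). H1650 had 0 reads under every treatment, so no change could be measured there.

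RARB, the retinoic acid receptor whose own gene is a known target of retinoic acid, changed by the highest fold of the members that rose. The gene spans chr3:24829321-25597932 (RefSeq, GRCh38.p14). It had 1 and 11 reads (0.050 and 0.54 normalized CPM) in PC9 at T0, 101 and 124 reads (4.52 and 4.84) with erlotinib and 151 and 129 reads (6.98 and 7.23) with osimertinib. The treated libraries did not overlap those at T0, and the log2 fold changes were 3.94 ± 0.45 (adjusted p = 1.3e-08) and 4.54 ± 0.44 (adjusted p = 4.73e-10). The size rests on which T0 library is used: without the first PC9 T0 library the changes were 3.09 and 3.69, and without the second 6.38 and 6.98. In H1650, RARB had 9 and 11 reads at T0, 12 and 16 with erlotinib and 8 and 23 with osimertinib, and passed neither test (adjusted p = 0.35 and 0.302).

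NR1D2 (REV-ERB beta), a repressor in the daily clock, rose in PC9 from 57.8 and 64.1 normalized CPM to 153 and 183 with erlotinib (1.46 ± 0.09, adjusted p = 1.33e-14) and to 157 and 166 with osimertinib (1.40 ± 0.09, adjusted p = 3.21e-14). Its gene lies at chr3:23945286-23980617 (RefSeq, GRCh38.p14). At T0 both lines held nearly the same level of it, 58.7 and 61.4 in H1650, where it stood at 64.8 and 69.0 with erlotinib and 62.0 and 63.8 with osimertinib and passed neither test (adjusted p = 0.172 and 0.613). Its relative NR1D1 (REV-ERB alpha) passed in PC9 with neither drug (adjusted p = 0.0861 and 0.968). In H1650 with erlotinib NR1D1 was lower (-0.49 ± 0.17, adjusted p = 0.0248), a call that was lost without the first H1650 T0 library, without the second H1650 erlotinib library and with DESeq2 (adjusted p up to 0.294).

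The bases just upstream of these 3 genes are shown as examples of members that rose in PC9 with both drugs and hold one of the motifs searched for, and they were chosen after their values were seen. NR5A2 and NR1H3 (AGGTCA) and NR2C1 (CACGTG) were also higher there with both drugs and hold a match, and so do PPARG and RARA (AGGTCA), which fell. Each window below is the 250 bases before 1 of the annotated starts of the gene, written 5′ to 3′ in the direction of the gene, from RefSeq promoter windows of GRCh38.p14. For RARB (chr3:25428013-25428262, plus strand) the capitals mark a direct repeat spelled GTTCANNNNNNGTTCA, 52 to 37 bases before the start. For NR0B1 (chrX:30309391-30309640, minus strand) they mark the half-site AGGTCA, 143 to 138 bases before it. For NR1D2 (chr3:23945871-23946120, plus strand) they mark an E-box, CACGTG, the hexamer bound by clock activators, at 155 to 150 and again at 105 to 100 bases before the start.
RARB: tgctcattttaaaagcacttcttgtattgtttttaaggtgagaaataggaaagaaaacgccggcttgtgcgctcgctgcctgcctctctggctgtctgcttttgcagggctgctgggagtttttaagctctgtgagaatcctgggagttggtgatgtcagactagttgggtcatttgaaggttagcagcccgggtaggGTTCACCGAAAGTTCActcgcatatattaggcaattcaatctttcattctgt
NR0B1: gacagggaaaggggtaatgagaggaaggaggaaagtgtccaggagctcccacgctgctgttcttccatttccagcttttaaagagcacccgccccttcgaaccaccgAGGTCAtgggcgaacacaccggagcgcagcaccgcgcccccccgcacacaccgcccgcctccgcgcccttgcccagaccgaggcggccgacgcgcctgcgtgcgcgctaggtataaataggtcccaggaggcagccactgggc
NR1D2: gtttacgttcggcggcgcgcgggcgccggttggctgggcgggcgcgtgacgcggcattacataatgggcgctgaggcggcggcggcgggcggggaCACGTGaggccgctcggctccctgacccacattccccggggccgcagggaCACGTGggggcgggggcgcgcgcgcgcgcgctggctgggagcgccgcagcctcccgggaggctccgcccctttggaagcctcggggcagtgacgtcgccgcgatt

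Searched on both strands of 35116 such windows, the repeat GTTCANNNNNNGTTCA stood in 0.0484% of all windows and, among 96 windows of the 41 members with an entry, in that of RARB alone. AGGTCA stood in 12.1% of all windows and 15.6% of the members' windows, and CACGTG in 6.34% and 6.25%. The cyclic AMP response element TGACGTCA stood in 1.65% and 2.08%. VDR, NR0B2, NR2F6, HNF4G and NR4A2 had no entry. A match is a description of letters and says nothing of binding in these cells.

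The other thyroid hormone and retinoic acid receptors mostly rose with both drugs in PC9. THRB, one of 2 receptors for thyroid hormone, went from 10.1 and 14.1 normalized CPM to 32.7 and 39.98 with erlotinib (1.59 ± 0.12, adjusted p = 7.23e-12) and 39.7 and 43.1 with osimertinib (1.77 ± 0.12, adjusted p = 7.2e-13), still below the H1650 T0 libraries. In H1650 it stood at 62.8 and 59.0, 65.6 and 75.8, and 70.6 and 68.5, and passed neither test. It did pass with erlotinib when H1650 was fitted on its own (0.22 on the log2 scale, adjusted p = 0.042). With the replicate block it passed with both drugs (adjusted p = 0.0192 and 0.0361). THRA, the other receptor for the hormone, rose with both drugs in both lines, from 8.57 and 7.16 to 14.6 and 18.7 with erlotinib and 11.9 and 13.1 with osimertinib in PC9 (1.09 ± 0.14 and 0.67 ± 0.15), and from 21.5 and 18.4 to 37.8 and 38.3 and to 34.8 and 31.9 in H1650 (0.93 ± 0.12 and 0.74 ± 0.12). In each case the groups did not overlap and the adjusted p was at most 0.000265. THRA shares 263 exon bases with NR1D1 on the opposite strand in GENCODE 29, so reads there cannot be split if strand was not used.

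RARG, the main RAR of these cells, rose in PC9 from 85.1 and 86.0 to 161 and 153 with erlotinib and 152 and 159 with osimertinib (0.87 ± 0.07 and 0.86 ± 0.07). RARA fell by a little in PC9, from 30.6 and 28.3 to 23.3 and 21.2 with erlotinib (-0.41 ± 0.11, adjusted p = 0.00154) and 23.8 and 22.0 with osimertinib (-0.36 ± 0.11, adjusted p = 0.00488, but 0.0508 without the first PC9 T0 library). In H1650 RARA rose with osimertinib, from 44.7 and 42.3 to 84.9 and 70.4 (0.84 ± 0.10, adjusted p = 7.52e-08), and stood at 54.7 and 48.0 with erlotinib (0.24 ± 0.10, adjusted p = 0.0574). Among the 3 RAR genes per kb, RARA thus went from 27% to 12.8% and 13% in PC9 but from 29% to 29.7% and 38.9% in H1650. RARB took 0.35% at T0 and 3.48% and 5.19% under drug in PC9.

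RXRA and RXRB, the shared partners of these receptors, rose in all 4 comparisons. RXRA stood at 248 and 232 normalized CPM in PC9 at T0, 401 and 426 with erlotinib and 356 and 366 with osimertinib (0.78 ± 0.07 and 0.59 ± 0.07), and at 117 and 107, 171 and 173, and 172 and 158 in H1650 (0.62 ± 0.07 and 0.56 ± 0.07). RXRB stood at 39.8 and 41.1, 92.8 and 82.6, and 86.0 and 87.1 in PC9 (1.12 ± 0.09 and 1.1 ± 0.09), and at 48.6 and 47.7, 67.0 and 56.5, and 66.2 and 62.8 in H1650 (0.36 ± 0.09 and 0.42 ± 0.09). None of these drug groups overlapped their T0 libraries, which with 2 libraries a group adds little to the test. The H1650 erlotinib call of RXRB was lost without the first H1650 erlotinib library (0.24, adjusted p = 0.088). The summed RXR level per kb went from 30.2 to 56.6 and 52.0 in PC9 and from 21.5 to 30.0 and 30.1 in H1650, and RXRG had 1 read in 1 of the 12 libraries.

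The PPAR genes, whose products sense fatty acids, moved in different directions from one another in PC9. PPARA, known for fatty acid oxidation, rose from 31.9 and 35.4 normalized CPM to 95 and 111 with erlotinib (1.62 ± 0.09, adjusted p = 4.13e-15) and 88.7 and 86.6 with osimertinib (1.38 ± 0.09, adjusted p = 1.36e-13). PPARG, known for fat storage and differentiation, fell from 72.7 and 72.1 to 21.4 and 23.4 (-1.69 ± 0.09, adjusted p = 3.31e-15) and 19.0 and 22.0 (-1.82 ± 0.10, adjusted p = 1.02e-15). PPARD fell by less, from 65.6 and 63.1 to 43.5 and 45.8 (-0.53 ± 0.08) and 47.3 and 48.0 (-0.43 ± 0.08). Per kb, PPARA went from 7.74% of the 3 PPAR genes at T0 to 34.2% and 30.4%, while PPARG went from 48.4% to 21.6% and 20.6%.

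In H1650, PPARA rose as well, from 27.2 and 27 to 43.9 and 48.0 with erlotinib (0.76 ± 0.09, adjusted p = 1.83e-07) and 37.8 and 37.0 with osimertinib (0.46 ± 0.09, adjusted p = 0.000235). PPARG did not fall there: it stood at 37.7 and 35.3 at T0, 45.2 and 47.6 with erlotinib (0.35 ± 0.09, adjusted p = 0.00312, but 0.0541 without the second H1650 T0 library) and 44.3 and 41.7 with osimertinib. PPARD passed neither test in H1650.

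VDR, the vitamin D receptor, fell in both lines, and further in PC9. Its gene lies at chr12:47841537-47904994 (RefSeq, GRCh38.p14). The level went from 52.5 and 55.8 normalized CPM to 5.06 and 5.62 with erlotinib (-3.34 ± 0.12, adjusted p = 1.12e-19) and 6.66 and 8.41 with osimertinib (-2.85 ± 0.11, adjusted p = 2.23e-18). In H1650, which started at 51.0 and 49.8, it fell to 26.2 and 25.8 with osimertinib (-0.95 ± 0.10, adjusted p = 8.05e-09), and stood at 40.1 and 40.6 with erlotinib (-0.32 ± 0.09, adjusted p = 0.0082). The erlotinib call in H1650 was lost without the first library of H1650 T0 or without the first of H1650 erlotinib (adjusted p up to 0.0574). No drug group overlapped the T0 libraries of its line.

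Of the COUP-TF group, orphan receptors that mostly repress, NR2F1 fell further than any other member with reads in every library. In PC9 it had 217 and 178 reads at T0 (10.9 and 8.79 normalized CPM), 13 and 8 with erlotinib (0.58 and 0.31) and 17 and 16 with osimertinib (0.79 and 0.90), which gave -4.47 ± 0.25 (adjusted p = 6.78e-15) and -3.55 ± 0.23 (adjusted p = 1.83e-13). In H1650 it stood at 34.6 and 34.9 at T0, 26.8 and 20.6 with erlotinib (-0.56 ± 0.13, adjusted p = 0.000869) and 27.6 and 28.6 with osimertinib (-0.31 ± 0.12, adjusted p = 0.0549). The long noncoding gene NR2F1-AS1 shares 158 exon bases with it on the opposite strand (GENCODE 29). NR2F1-AS1 also fell in PC9, from 5.93 ± 0.33 to 0.82 ± 0.05 with erlotinib and 1.57 ± 0.72 with osimertinib (mean ± SD, n = 2, adjusted p = 2.2e-10 and 1.16e-07 by edgeR), and passed neither test in H1650.

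NR2F2 rose in PC9 with osimertinib only by a little, from 204 and 192 to 264 and 256 (0.39 ± 0.07, adjusted p = 2.54e-05), and stood at 205 and 197 with erlotinib. In H1650 it stayed between 21.3 and 23.5 in all 6 libraries and passed neither test. NR2F6 passed in PC9 with both drugs (-0.32 and -0.46), calls that DESeq2 did not make (adjusted p = 0.0843 with osimertinib). With erlotinib the call was also lost without the first PC9 T0 library, without the second PC9 erlotinib library and with the filter of at least 10 reads in every library (adjusted p up to 0.623).

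Of the receptors for oxysterols, NR1H3 was higher in PC9 with erlotinib (0.40 ± 0.12, adjusted p = 0.00721) and osimertinib (0.34 ± 0.13, adjusted p = 0.0238), and in H1650 with osimertinib (0.60 ± 0.18, adjusted p = 0.0109), from 4.01 and 2.82 to 4.58 and 5.66 normalized CPM. Each of these calls was lost without 1 of its libraries: in PC9 without the first T0 library (adjusted p = 0.0748 with erlotinib) or, for osimertinib, without either osimertinib library too or with DESeq2 or no filter (adjusted p up to 0.152), and in H1650 without the second T0 or second osimertinib library (adjusted p up to 0.243). NR1H2 passed with osimertinib in H1650 only (0.25 ± 0.09, adjusted p = 0.0279), a call that was lost with DESeq2 and without the second T0 or first osimertinib library (adjusted p up to 0.366).

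Steroid receptors were present at unequal levels. NR3C1, which binds glucocorticoids, stood between 96.2 and 118 normalized CPM in the PC9 libraries and between 142 and 169 in those of H1650. At T0 it was called higher in H1650 than in PC9, and that call held under every alternative. Its sole call for a drug was in PC9 with erlotinib (0.22 ± 0.08, adjusted p = 0.0164). That call was lost without either PC9 T0 library, without the second erlotinib library and with no filter (0.14 to 0.21 on the log2 scale). With osimertinib in PC9 it stood at an adjusted p of 0.0769, and 0.0251 with the replicate block (0.16 on the log2 scale). NR3C2 had 15 and 19 reads in PC9 at T0, 49 and 50 with erlotinib (1.28 ± 0.41, adjusted p = 0.0087) and 41 and 42 with osimertinib (1.31 ± 0.42, adjusted p = 0.00793). The groups did not overlap, yet neither call was made by DESeq2 or without the first PC9 T0 library, nor without the first erlotinib or second osimertinib library respectively (adjusted p up to 0.0738 and 0.0678).

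ESR1, the alpha estrogen receptor, went in opposite directions in the 2 lines with erlotinib at low counts. It had 61 and 55 reads in PC9 at T0, 133 and 153 with erlotinib (1.04 ± 0.23, adjusted p = 0.000344) and 65 and 58 with osimertinib (adjusted p = 0.738). In H1650 it had 58 and 80 reads at T0, 30 and 31 with erlotinib (-0.96 ± 0.27, adjusted p = 0.00683) and 38 and 57 with osimertinib (adjusted p = 0.23). The H1650 call was lost without the second T0 library (-0.86, adjusted p = 0.0552). ESR2 had 5 and 6 reads in PC9 at T0, 0 and 0 with erlotinib, which makes it at least 2.04-fold lower, and 2 and 1 with osimertinib. ESRRA fell in PC9 from 101 and 103 to 86.9 and 72.3 with erlotinib and 70.9 and 74.0 with osimertinib (-0.36 ± 0.09 and -0.50 ± 0.09), and in H1650 it stood at 44.0 and 40.4 at T0 and 49.95 and 56.3 with erlotinib (0.34 ± 0.09, adjusted p = 0.00517, up to 0.112 without the second T0 or the second erlotinib library).

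The NR4A genes, induced rapidly by growth signals in many cells, parted from one another in PC9 with erlotinib. NR4A2 rose in all 4 comparisons, from 2.77 and 2.57 normalized CPM to 4.57 and 4.49 with erlotinib and 8.19 and 5.49 with osimertinib in PC9 (0.76 ± 0.20 and 1.37 ± 0.19), and from 13.8 and 13.1 to 22.6 and 23.6 and to 30.2 and 32.8 in H1650 (0.78 ± 0.13 and 1.23 ± 0.13), with no overlap of any drug group with T0. NR4A1 fell in PC9 with erlotinib, from 4.24 and 5.23 to 2.33 and 1.37 (-1.38 ± 0.25, adjusted p = 2.37e-05). With osimertinib it stood at 7.4 and 7.18 (0.62 ± 0.20, adjusted p = 0.00883, but 0.0964 without the first PC9 T0 library). In H1650 it stood at 47.6 and 37.4 with erlotinib against 51.4 and 56.4 at T0 (-0.34 ± 0.13, adjusted p = 0.038), a call that was lost with DESeq2, with the filter of at least 10 reads in every library, and without the second T0 or second erlotinib library (adjusted p up to 0.383). NR4A3 had at most 7 reads in any PC9 library, and in H1650 it had 36 and 78 at T0, 23 and 27 with erlotinib and 31 and 28 with osimertinib.

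NR5A2 (LRH-1), a receptor that binds phospholipids, rose in PC9 from 1.31 and 1.19 normalized CPM to 3.14 and 3.67 with erlotinib (1.45 ± 0.28, adjusted p = 6.18e-05) and 3.47 and 3.36 with osimertinib (1.45 ± 0.29, adjusted p = 7.33e-05). In H1650 it stood at 3.31 and 4.13 at T0, 1.86 and 1.86 with erlotinib (-1.0 ± 0.26, adjusted p = 0.00311, but 0.0521 without the second T0 library) and 3.29 and 3.92 with osimertinib. NR6A1, an orphan receptor of germ cells and early embryos, rose in H1650 with erlotinib, from 5.27 and 5.33 to 11.9 and 8.33 (0.92 ± 0.19, adjusted p = 0.000225), and stood at 7.69 and 10.1 with osimertinib (0.75 ± 0.19, adjusted p = 0.00222, but 0.0698 without the second osimertinib library). In PC9 it passed with erlotinib only (0.49 ± 0.16, adjusted p = 0.0102), a call that was lost with DESeq2 and without the first erlotinib library (adjusted p up to 0.0648). NR2C1, an orphan relative of RXR, rose in PC9 with both drugs (0.61 and 0.46), and NR2C2 passed in PC9 with osimertinib only (-0.22 ± 0.08, adjusted p = 0.0201, up to 0.208 without the second T0 or first osimertinib library). NR2C1 also passed in H1650 with both drugs (0.31 and 0.28), calls that DESeq2 did not make, that were lost without the first T0 library or the second library of the drug, and, with osimertinib, that were lost with no filter (adjusted p up to 0.206 and 0.312).

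**Figure D3:**
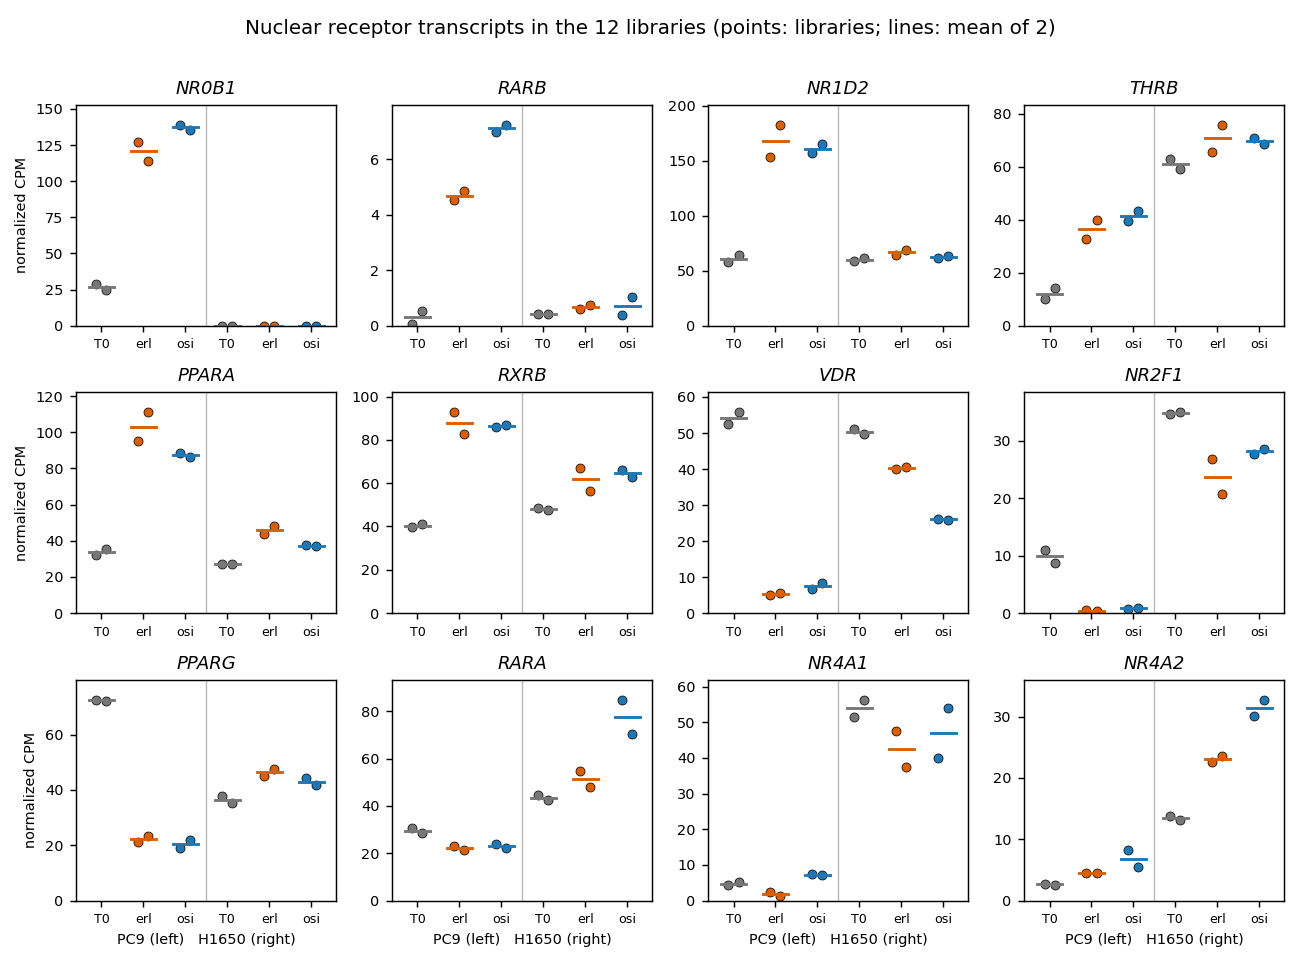
Normalized CPM of 12 members in each library, with PC9 to the left and H1650 to the right of the grey line in each panel, points for libraries and lines for the mean of 2 at T0 (grey), with erlotinib (orange, erl) and with osimertinib (blue, osi). NR0B1 reaches 114 to 139 under drug in PC9 and is 0 throughout H1650, VDR and NR2F1 drop in PC9, and RARA rises with osimertinib in H1650.

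The response of the 2 lines was then compared directly, by subtracting the log2 fold change of PC9 from that of H1650. For erlotinib, 9 members were higher and 10 lower in this difference, where 21.1% of all tested genes were higher and 19.8% were lower. For osimertinib, 7 were higher and 9 lower (21.5% and 20.5% of all tested genes). VDR (3.02 ± 0.15 and 1.90 ± 0.15), NR2F1 (3.92 ± 0.30 and 3.24 ± 0.28) and PPARG (2.04 ± 0.13 and 2.06 ± 0.13) fell in PC9 with both drugs. In H1650 the change was less negative for VDR and NR2F1 and positive for PPARG. THRB (-1.37 ± 0.16 and -1.58 ± 0.16), NR1D2 (-1.31 ± 0.12 and -1.34 ± 0.12) and RARB (-3.26 ± 0.77 and -3.80 ± 0.76) rose in PC9 with both drugs and had no call in H1650. The RARB difference was -2.40 and -2.95 without the first PC9 T0 library and -5.69 and -6.24 without the second, and -4.67 for osimertinib without the second H1650 osimertinib library. The difference of NR0B1 could not be fitted, since H1650 had no reads. Under every alternative and with each library left out, 14 of the 19 calls with erlotinib and 13 of the 16 with osimertinib held. The calls that did not were those of NR1D1, NR2F6, ESR2, NR4A1 and NR4A3 with erlotinib and NR2F2, NR2F6 and NR4A1 with osimertinib. The differences of THRA, RXRA and NR4A2 between the lines passed with neither drug, at sizes of -0.15 ± 0.18 and 0.08 ± 0.19, -0.16 ± 0.10 and -0.03 ± 0.10, and 0.02 ± 0.25 and -0.14 ± 0.23 (log2 ± SE).

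Osimertinib and erlotinib were given at different doses, so their levels are set side by side for these doses only. In PC9, 4 members were higher with osimertinib than with erlotinib and 2 were lower, where 10.1% of all tested genes were higher and 6.41% were lower. In H1650, 3 were higher and 2 lower (5.02% and 3.73% of all tested genes). NR4A1 differed most, at 7.4 and 7.18 normalized CPM with osimertinib and 2.33 and 1.37 with erlotinib in PC9 (2.00 ± 0.23, adjusted p = 2.82e-07). NR2F2 in PC9 (0.37 ± 0.07, adjusted p = 0.000392), RARA in H1650 (0.60 ± 0.10, adjusted p = 9.1e-05) and VDR in H1650 (-0.63 ± 0.10, adjusted p = 5.58e-05) held as well under every alternative and with each library left out. With the replicate block, 3 more members passed in PC9, namely PPARA (-0.23, adjusted p = 0.00566 against 0.0558 without the block), RXRA (-0.20, 0.0126 against 0.0608) and NR0B1 (0.19, 0.0194 against 0.155). PPARA also passed with no filter, at least 10 reads in every library, or PC9 fitted on its own (adjusted p = 0.0449, 0.0393 and 0.0365). So did RXRA (0.0286, 0.0404 and 0.0367). The other 7 calls did not hold throughout. In PC9, that of THRA (-0.42) was lost with DESeq2 and without the second erlotinib library or either osimertinib library (adjusted p up to 0.403). VDR (0.48) was lost without the first erlotinib or second osimertinib library (up to 0.272), ESR1 (-0.93) without the first osimertinib library (0.053), and NR4A2 (0.61) without the second erlotinib or first osimertinib library and with PC9 fitted on its own (up to 0.449). In H1650, the calls of PPARA (-0.30), NR4A2 (0.45) and NR5A2 (0.95) were not made by DESeq2. They were also lost without the second erlotinib or second osimertinib library, PPARA and NR4A2 without the first osimertinib library, NR4A2 and NR5A2 without the first erlotinib library, and PPARA with no filter (adjusted p up to 0.314, 0.179 and 0.156).

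**Figure D4:**
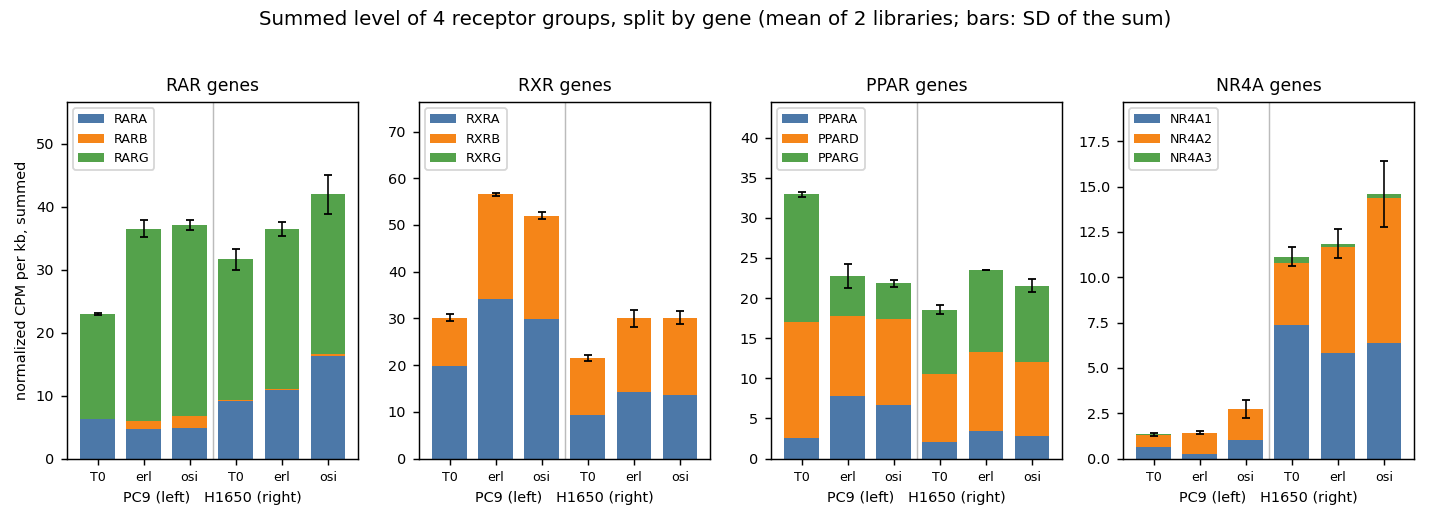
Summed level of the RAR, RXR, PPAR and NR4A genes (normalized CPM per kb, bars from 0) in the 6 groups, coloured by gene, with the SD of the sum over 2 libraries. In PC9 the RXR sum rises from 30.2 to 56.6 and 52.0 while the PPAR sum drops from 32.9 to 22.7 and 21.8, with a higher share of PPARA and a lower share of PPARG. In H1650 the PPAR sum goes from 18.6 to 23.5 and 21.5.

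Genes that work with or downstream of the receptors were read from 13 lists of known partners, with 110 genes in the table. All 13 lists were chosen with earlier results of these data known. Their counts and medians therefore describe the listed genes and are no test of a list. Counts of these short lists stand beside the shares of all tested genes that rose and fell, 32.7% and 29.1% in PC9 with erlotinib, 32.7% and 28.7% with osimertinib, 18.0% and 18.5% in H1650 with erlotinib, and 17.8% and 17.9% with osimertinib. Medians are given for lists in which no tested gene had a group at 0 reads. Of 11 retinoid handling and RAR-linked targets, 9 rose and 2 fell in PC9 with each drug (median log2 fold change 3.09 and 2.85, beside 0.07 and 0.06 over all tested genes). In H1650, 3 rose and 2 fell with erlotinib and 4 rose and 1 fell with osimertinib (median -0.05 and -0.08, beside 0.01 and 0.00). RARRES1, a retinoid-responsive gene, went from 1.62 ± 0.43 to 25.3 ± 1.0 with erlotinib and 28.8 ± 0.4 normalized CPM with osimertinib in PC9 (mean ± SD, n = 2), and ALDH1A1, an enzyme that makes retinoic acid, from 0.23 ± 0.04 to 2.75 ± 0.59 and 11 ± 0.6. ALDH1A2, which makes it too, went from 0.27 ± 0.24 to 3.96 ± 0.80 and 5.36 ± 0.98. The sizes of ALDH1A2 (3.82 and 4.26 on the log2 scale) became 3.13 and 3.57 without the first PC9 T0 library and 5.21 and 5.65 without the second.

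Of 7 LXR-linked targets, which move cholesterol and make fat, 5 rose and 0 fell in PC9 with erlotinib, 6 and 0 with osimertinib, 3 and 1 in H1650 with erlotinib, and 4 and 0 with osimertinib. Their median log2 fold changes were 0.80, 1.56, 0.285 and 0.87 in that order. ABCA1, the cholesterol exporter, went from 12.8 ± 0.3 to 25.4 ± 2.6 and 52.6 ± 1.8 in PC9, and from 18.2 ± 0.7 to 18.5 ± 2.9 and 31.4 ± 4.0 in H1650, where it passed with osimertinib only. MYLIP, which marks the LDL receptor for breakdown, rose in all 4 comparisons (0.80, 1.56, 0.82 and 0.92). Of 7 tested glucocorticoid-linked targets, 4 rose and 3 fell in PC9 with erlotinib, 5 and 2 with osimertinib, 2 and 2 in H1650 with erlotinib, and 4 and 2 with osimertinib (medians 1.54, 1.735, -0.01 and 0.50). Of these, TSC22D3 (GILZ) rose in PC9 from 4.22 ± 0.45 to 68.6 ± 1.9 and 42.4 ± 1.3, while FKBP5, a chaperone of steroid receptors that glucocorticoids induce, fell from 30.8 ± 0.4 to 2.38 ± 0.39 and 2.03 ± 0.38.

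Of 5 vitamin D-linked genes, 1 rose and 2 fell in PC9 with each drug, and 2 rose and 1 fell in H1650 with each. CYP24A1, which breaks down active vitamin D and is its best-known target, fell in all 4 comparisons (-2.73, -0.96, -1.48 and -1.72), whereas TRPV6, a calcium channel, rose in all 4 (4.48, 3.74, 1.12 and 1.18). Of 7 tested PPAR-linked targets, 5 rose and 2 fell in PC9 with erlotinib, 5 and 1 with osimertinib, 4 and 1 in H1650 with erlotinib, and 2 and 0 with osimertinib (medians 0.59, 0.89, 0.22 and 0.18). CPT1A, which admits fatty acids into mitochondria, rose in PC9 with both drugs (1.1 and 0.93). Of 14 tested clock partners, 7 rose and 6 fell in PC9 with erlotinib, 7 and 7 with osimertinib, and 3 and 2 and then 5 and 3 in H1650 (medians 0.03, 0.15, -0.01 and 0.16). CRY1 fell in all 4 comparisons (-1.51, -1.38, -0.73 and -0.97), DBP rose in all 4 (2.33, 2.04, 0.72 and 1.07), and PER3 rose in PC9 (0.54 and 0.62) and fell in H1650 (-1.61 and -1.32).

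The growth factor immediate early genes, the group to which NR4A1 is often joined, rose in PC9 more often than they fell and had no call upward in H1650. Of 7, 5 rose and 1 fell in PC9 with erlotinib and 6 and 1 with osimertinib, while in H1650 0 rose with either drug, 6 fell with erlotinib and 3 with osimertinib. The FOSB call in PC9 with erlotinib was lost without the second PC9 T0 library (adjusted p = 0.0986). In the difference of the responses, H1650 less PC9, 6 of the 7 were lower and 0 higher for each drug, where 19.8% and 20.5% of all tested genes were lower. EGR1 stood at 31.8 ± 6.0 normalized CPM in PC9 at T0, 54.6 ± 1.4 with erlotinib and 162 ± 18 with osimertinib, and at 466 ± 38, 78.2 ± 7.3 and 158 ± 8 in H1650. Of the remaining lists, coactivators (11 tested) had 6 genes higher and 3 lower in PC9 with erlotinib, 4 and 3 with osimertinib, and 4 and 1 and then 3 and 3 in H1650 (medians 0.18, 0.10, 0.12 and 0.145). Corepressors (8 tested) had 2 and 3, 1 and 2, 2 and 2, and 0 and 1 in the same order (medians 0.02, -0.10, -0.001 and -0.05). Estrogen-linked targets (6 tested) had 2 and 3, 2 and 3, 3 and 1, and 1 and 1, bile acid and xenobiotic targets (4 tested of 8) had 2 and 1, 2 and 1, 1 and 0, and 2 and 0, thyroid hormone handling genes (3 tested of 7) had 1 and 1, 1 and 1, 2 and 1, and 1 and 1, and steroid-converting enzymes (7 tested) had 4 and 1, 5 and 2, 3 and 0, and 3 and 1. PPRC1, a coactivator of the PGC-1 family, fell in all 4 comparisons (-1.34, -1.42, -0.44 and -0.53), and DIO2, which activates thyroid hormone, rose in all 4 (2.02, 3.28, 0.99 and 0.77).

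Some member counts can hold reads of a neighbour. In GENCODE 29, 20 of the 46 members share exon bases with another gene, 15 of them with a gene on the opposite strand, and the sources used here do not give the strand setting of the counting. Among tested members, the overlaps with opposite genes ran to 1197 bases in NR2C2 (with MRPS25), 754 in NR4A1 (with AC025259.3), 564 in RORA (with RORA-AS1), 556 in RARA (with RARA-AS1), 284 in ESRRA (with TRMT112), 244 in RXRB (with SLC39A7) and 189 in NR1H3 (with ACP2), and among untested members to 812 in PGR (with PGR-AS1) and 661 in NR1I3 (with TOMM40L). RARA-AS1 rose in PC9 with both drugs, from 0.38 ± 0.18 normalized CPM to 1.59 ± 0.15 and 1.31 ± 0.18 (adjusted p = 0.0012 and 0.00536), while RARA fell there. NR2F2-AS1 rose in PC9 with both drugs (0.70 and 1.12) and in H1650 with osimertinib (1.24), at no more than 102 reads in a library. The part of such shared reads in the members' values was not tested.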

How the data were processed

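Polyadenylated RNA of PC9 and H1650 cells was sequenced in 12 libraries, 2 replicates in each of 6 groups taken from the deposited labels. Reads went through the DolphinNext pipeline, and the authors deposited featureCounts counts, whole numbers of reads per gene, without normalization. The submitters' processing notes name GRCh38 and DESeq2. The annotation and strand setting are not given in the sources used here. The 46 genes and the partner and marker lists were chosen with earlier results of these data known.

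The 60591 genes were analysed with edgeR 4.0.16 (R 4.3.3). Filtering on expression per group left 19108 genes, at least 99.9% of each library's counts, and removed 41483. Scaling was by TMM (0.941 to 1.08). The 12 libraries were fitted together by quasi-likelihood, with a coefficient for each of the 6 groups (6 residual and 20.7 prior degrees of freedom), for 9 contrasts, and p-values were Benjamini-Hochberg adjusted over all tested genes. An adjusted p under 0.05 was a call, and "rose" and "fell" are used of calls. Members described one by one have a call of at least 1 on the log2 scale in a drug comparison or between the lines at T0 and a mean of at least 1 normalized CPM in a group (23 members), and the other 10 tested members are given more briefly. Up to 4 genes a partner list qualified for naming, by calls in at least 2 of the 4 drug comparisons, mean size and a level of at least 5 normalized CPM; some that qualified are counted in their lists but not reported here by name. Counts of at most 3 reads are given as reads, with a bound against 3 reads or a 95% counting interval, which covers counting error only.

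The alternatives were DESeq2 1.42.0, RLE scaling, no filter, at least 10 reads in every library, each line fitted on its own, the replicate number as a block, and each library left out in turn. The fit was also run on simulated data with far fewer changed genes, which checks the code only and is no support for the calls. The study calls the 2 replicates biological, and the labels do not say whether they were separate cultures, so p-values measure the spread between these libraries. Same-numbered libraries deviated together in PC9 (correlations 0.104 to 0.167 over 3 pairs) but less regularly in H1650 (0.035 to 0.211), so a blocked value stands beside a PC9 result where it changes the call. Replicates differed by more than sampling noise (chi-square per degree of freedom 4.03 to 7.16) and were counted separately. With 2 libraries a group, an SD has low precision. For the same reason, a lack of overlap between groups describes the libraries and is not evidence beside the test. The share of all tested genes without overlap was not counted. Positions and promoter windows are from RefSeq (GRCh38.p14), and exon overlaps from GENCODE 29.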

Additional observations from a re-analysis of the deposited data

Results flagged for a closer look

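These results were singled out because the difference between the lines (log2 fold change of H1650 less that of PC9) passed its own test and was at least 1 in size on the log2 scale, or because the gene was called in opposite directions in the 2 lines. There were 20 of them, 12 with erlotinib and 8 with osimertinib. The 2 drugs share their T0 libraries, so they are not separate evidence.

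With erlotinib, the difference was 3.92 for NR2F1, 3.02 for VDR and 2.04 for PPARG, which was called lower in PC9 and higher in H1650. The H1650 call of PPARG was lost without the second H1650 T0 library. The difference was -3.26 for RARB, -1.37 for THRB and -1.31 for NR1D2. ESR1 (-2.00) and NR5A2 (-2.45) were called higher in PC9 and lower in H1650, and ESRRA (0.70) lower in PC9 and higher in H1650, where each H1650 call was lost without the second H1650 T0 library. NR4A1 differed by 1.03, which became 0.68 with an adjusted p of 0.078 without the second PC9 erlotinib library. ESR2 (4.78) and NR4A3 (-3.02) rest on at most 7 reads in each PC9 library, so the fitted sizes depend on the prior count. Both calls were lost without the second PC9 erlotinib, the second PC9 T0 or the second H1650 T0 library, that of ESR2 also without the first PC9 erlotinib library, and that of NR4A3 also without the first PC9 T0 library and with DESeq2 (adjusted p up to 0.111 and 0.122).

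With osimertinib, the difference was 3.24 for NR2F1, 1.90 for VDR, 2.06 for PPARG, -3.80 for RARB, -1.58 for THRB, -1.34 for NR1D2 and -1.50 for NR5A2. RARA (1.20) was called lower in PC9 and higher in H1650. These 8 differences stayed past the threshold under every alternative run and with each library left out, although the PC9 call of RARA and the H1650 call of PPARG did not.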

How the results depend on the processing

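Of 479 results for members and named partner genes, no called result changed direction under any alternative or with any library left out, and 152 of 8413 alternative values changed sign where neither value was called. DESeq2 lost 31 calls and added 0, RLE scaling lost 4 and added 2, no filter lost 13 and added 8, the filter of at least 10 reads in every library lost 2 and added 6, and fits of each line on its own lost 5 and added 6. Leaving out 1 library at a time lost 170 calls and added 41. Of the 9 counts of members called, that of H1650 osimertinib against erlotinib went from 5 to 2 with DESeq2. Leaving out 1 library gave 10 to 16 calls for H1650 erlotinib against T0 (16 with all, 10 without the second H1650 T0 library), 3 to 6 for PC9 osimertinib against erlotinib (6 with all, 3 without the first PC9 osimertinib library) and 2 to 5 for H1650 osimertinib against erlotinib (5 with all). The causes were not tested.

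With the replicate number as a block in the fit of all libraries, 0 calls were lost and 19 were added, with 26, 25, 20 and 17 members called for erlotinib and osimertinib in PC9 and then in H1650 (26, 24, 16 and 13 without it). Deviations correlated over 0.1 in all 3 PC9 pairs but in 1 of 3 H1650 pairs and in 7 of all 15 (-0.055 to 0.211). Pairs of groups across the lines ran from -0.055 to 0.202. The numbers were taken to pair libraries within PC9 only, a choice that these correlations do not settle. Outside PC9, the members whose calls the block added were NR2F6 (adjusted p = 0.00136 and 0.00346 in H1650 with erlotinib and osimertinib, 0.000393 between the lines), THRB (0.0192 and 0.0361 in H1650), RARA and PPARD in H1650 with erlotinib (0.0161 and 0.0384), NR2F1 in H1650 with osimertinib (0.023), NR2C2 (0.00868 in H1650 with osimertinib, 0.0372 against erlotinib, 0.0262 between the lines), ESRRA in H1650 between the drugs (0.0378) and NR6A1 in the osimertinib difference (0.04). Depth limits what can be said of members below about 10 reads, among them the 13 untested genes.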

Other observations

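Partner genes of the receptors not described above also changed with both drugs. PDZK1, a scaffold protein induced by estrogen in breast cells, stood at 1.87 ± 0.13 normalized CPM in PC9 at T0, 31.5 ± 0.4 with erlotinib and 69.5 ± 7.5 with osimertinib (mean ± SD, n = 2), and IGFBP4, a binding protein of insulin-like growth factors, fell from 342 ± 13 to 22.7 ± 0.4 and 34.6 ± 1.0. NPAS2, a clock activator, fell from 69.6 ± 2.5 to 13.9 ± 0.2 and 13.9 ± 0.3, while in H1650 it stayed below 1 normalized CPM on average in each group. HR, a corepressor of the thyroid hormone and vitamin D receptors, fell in PC9 from 19.4 ± 0.2 to 5.84 ± 0.04 and 5.53 ± 1.5, while in H1650 it stood at 23.0 ± 0.8, 28.7 ± 0.5 and 23.4 ± 0.1 and was called higher with erlotinib (0.32 on the log2 scale, adjusted p = 0.0341), a call that was lost with DESeq2, no filter or any 1 of the 4 H1650 T0 and erlotinib libraries left out (adjusted p up to 0.172). KLF9, a transcription factor that glucocorticoids induce, rose in all 4 comparisons, from 4.84 ± 0.28 to 23.8 ± 0.5 and 22.4 ± 1.5 in PC9 and from 5.59 ± 1.1 to 13.5 ± 0.8 and 13.2 ± 0.3 in H1650. NCOA7, a coactivator of estrogen receptors, rose in all 4 as well (1.42, 1.40, 1.02 and 0.94 on the log2 scale).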
